A study of Mus musculus with 12 samples.

Results

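The brush border of the small intestine carries digestive enzymes anchored in the apical membrane of enterocytes, and 9 genes of such enzymes were followed here. They encode the disaccharidases Lct (lactase), Sis (sucrase-isomaltase) and Treh (trehalase), the aminopeptidases Anpep and Enpep, the dipeptide-releasing enzymes Dpp4 and Ace, and the meprin subunits Mep1a and Mep1b. The genes were picked by symbol as membrane hydrolases of enterocytes, with earlier results of these data known, and each was read from the single probe set that carries its symbol. They are 9 of the 19938 genes tested on the array.

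RNA of whole jejunum, the middle stretch of the small intestine, was measured in mice with an inducible knockout of the centrosome gene Fgfr1op (KO) and in wild-type mice (WT). The KO groups were taken at days 6, 9 and 12 after tamoxifen, the drug used to induce the deletion, and the WT groups carry the same 3 days. Each of the 6 groups held 2 mice and each mouse had 1 array, which makes 12 arrays. Tamoxifen was injected into the abdomen at 75 mg/kg on 5 consecutive days, per the labels' protocols, and the same dose and days are listed for KO and WT samples. The sources used here do not give the promoter that drives the recombinase, the deleted stretch of the gene or the mice's age. Beyond that listing they do not state that the WT mice received tamoxifen. Effects of drug or recombinase therefore cannot be told apart from those of gene loss.

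Dietary starch, sugars and protein are cut to short chains in the lumen and then to absorbable units by these ectoenzymes, whose active sites face the gut contents. Enterocytes acquire them as they leave the crypt and climb the villus, and transcription factors of the CDX, HNF1, HNF4 and GATA families are known to act on the promoters of lactase and sucrase-isomaltase. Lactase splits milk sugar, sucrase-isomaltase splits sucrose and branched starch products, and trehalase splits the fungal and insect sugar trehalose. Aminopeptidase N (Anpep) and aminopeptidase A (Enpep) remove single residues from the amino end of peptides, Dpp4 removes dipeptides after proline or alanine, and the angiotensin-converting enzyme Ace removes dipeptides from the carboxyl end. Meprin alpha (Mep1a) and meprin beta (Mep1b) are metalloproteases of the astacin family that can join into one enzyme.

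Promoter sequence is shown for the 3 disaccharidases, since lactase and sucrase-isomaltase are the pair of enzymes that differed most in their values. Each run of 300 bases spans 250 bases before and 50 after the RefSeq start, on GRCm38.p6. The Lct window lies at chr1:128328269-128328568 on the minus strand, that of Sis at chr3:72967814-72968113 on the minus strand, and that of Treh at chr9:44672983-44673282 on the plus strand. Capitals mark matches on either strand to 4 short motifs, and no match overlaps another. The motif searched for CDX factors was CATAAA. The one searched for HNF1 factors was GTTAAT. For GATA factors the letters searched were AGATAA. The HNF4 motif was searched with the longer string CAAAGTCCA.
Lct: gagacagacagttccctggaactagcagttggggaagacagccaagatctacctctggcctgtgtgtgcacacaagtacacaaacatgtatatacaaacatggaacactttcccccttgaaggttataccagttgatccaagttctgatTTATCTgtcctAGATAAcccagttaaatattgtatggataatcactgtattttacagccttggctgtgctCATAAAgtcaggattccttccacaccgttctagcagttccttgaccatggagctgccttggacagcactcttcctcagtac
Sis: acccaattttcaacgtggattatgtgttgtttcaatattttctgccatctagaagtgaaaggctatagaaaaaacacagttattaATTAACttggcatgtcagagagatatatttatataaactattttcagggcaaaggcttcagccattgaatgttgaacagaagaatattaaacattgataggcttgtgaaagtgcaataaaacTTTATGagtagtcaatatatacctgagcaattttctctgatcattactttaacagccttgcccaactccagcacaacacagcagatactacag
Treh: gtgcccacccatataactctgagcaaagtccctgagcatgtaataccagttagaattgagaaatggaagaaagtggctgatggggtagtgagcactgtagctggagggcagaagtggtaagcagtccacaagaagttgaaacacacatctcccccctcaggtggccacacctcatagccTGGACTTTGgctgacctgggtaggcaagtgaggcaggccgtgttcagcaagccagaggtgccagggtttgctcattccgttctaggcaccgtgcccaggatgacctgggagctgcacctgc

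The Lct window held 1 CDX-type match and 2 GATA-type matches, the Sis window 1 CDX-type and 1 HNF1-type match, and the Treh window 1 HNF4-type match. Of the 8 enzymes with a RefSeq window, Dpp4 had 1 GATA-type match and Mep1a 1 CDX-type match, so 3 of 8 carried the CDX type and 2 of 8 the GATA type. Among all 32851 windows of this length, 11.9% held the CDX-type motif, 11.2% the GATA type, 7.10% the HNF1 type and 0.475% the HNF4 type. A match describes these letters only and is neither a shown binding site nor a cause of any value below.

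Values are the authors' log2 signals, in which a difference of 1 is a doubling. They ran from 2.29 to 14.13, with array medians of 5.95 to 6.02, and correlations across genes within a group were 0.992 to 0.997. A dim level of 5.26 was set from 1194 odorant and vomeronasal receptor genes, and all 9 enzymes averaged above it. The targeted gene, listed under its current symbol Cep43, had signals of 6.69 and 6.56 in the KO arrays of day 6, against 6.97 and 6.90 in the WT arrays. Its day 9 signals were 6.60 and 6.63 in KO, against 6.96 and 7.05 in WT. Its day 12 signals were 6.97 and 6.74 in KO, against 6.83 and 7.04 in WT. Averaged over days it was lower in KO by a log2 difference of -0.26 (SE 0.06, limma adjusted p = 0.00713), although at day 12 the groups overlapped; its probe set may lie outside the deleted stretch, in which case it would not check the labels. The 10 pan-epithelial markers, such as Epcam and Krt8, averaged 11.48 to 11.79 over the KO arrays and 11.23 to 11.47 over the WT arrays.

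At day 6 lactase was the only one of the digestive enzymes called lower in KO jejunum, and by day 9 all of them were called lower. The median log2 difference of the 9 genes was -0.07 at day 6, -1.80 at day 9 and -1.80 at day 12, against 0.00, 0.02 and 0.02 over all genes. At an adjusted p under 0.05, 1 of 9 was lower at day 6, where 0.431% of all genes were called lower and 0.597% higher. All 9 were lower at day 9, against 17.1% of all genes lower and 12.6% higher, and 8 of 9 were lower at day 12, against 13.7% lower and 13.7% higher. Bright genes were called lower more often than all genes. Of 152 genes with a WT mean above 12, 79 were lower and 10 higher at day 9, with a median of -0.35. At day 12, 76 of the 152 were lower and 13 higher, with a median of -0.34. These 152 hold all the enzymes except Treh and Mep1a, whose WT means were 9.53 and 10.12. At day 9, 2505 of the 5917 genes called were higher (42.3%), while quantile normalisation of the arrays gave 3157 of 5982 (52.8%). Averaged over days, all 9 were lower, beside 16.9% of all genes. In an exact permutation test of genotype within days, without adjustment, the two-sided p of that average was 0.00926, the smallest it can give, for Lct, Treh, Ace and Mep1a, 0.0185 for Enpep and Dpp4, 0.037 for Sis and 0.0463 for Anpep and Mep1b.

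Both KO arrays lay below both WT arrays for 4 of 9 genes at day 6, beside 20.9% of all genes, for 9 of 9 at day 9, beside 31.1%, and for 9 of 9 at day 12, beside 26.6%. In whole tissue, fewer cells of a type and less RNA per cell cannot be told apart. Several of the enzymes lie high on the array's scale, and whether signals near the top respond less was not tested. The same holds for low signals, such as those of Lct and Mep1a in KO at days 9 and 12.

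**Figure D1:**
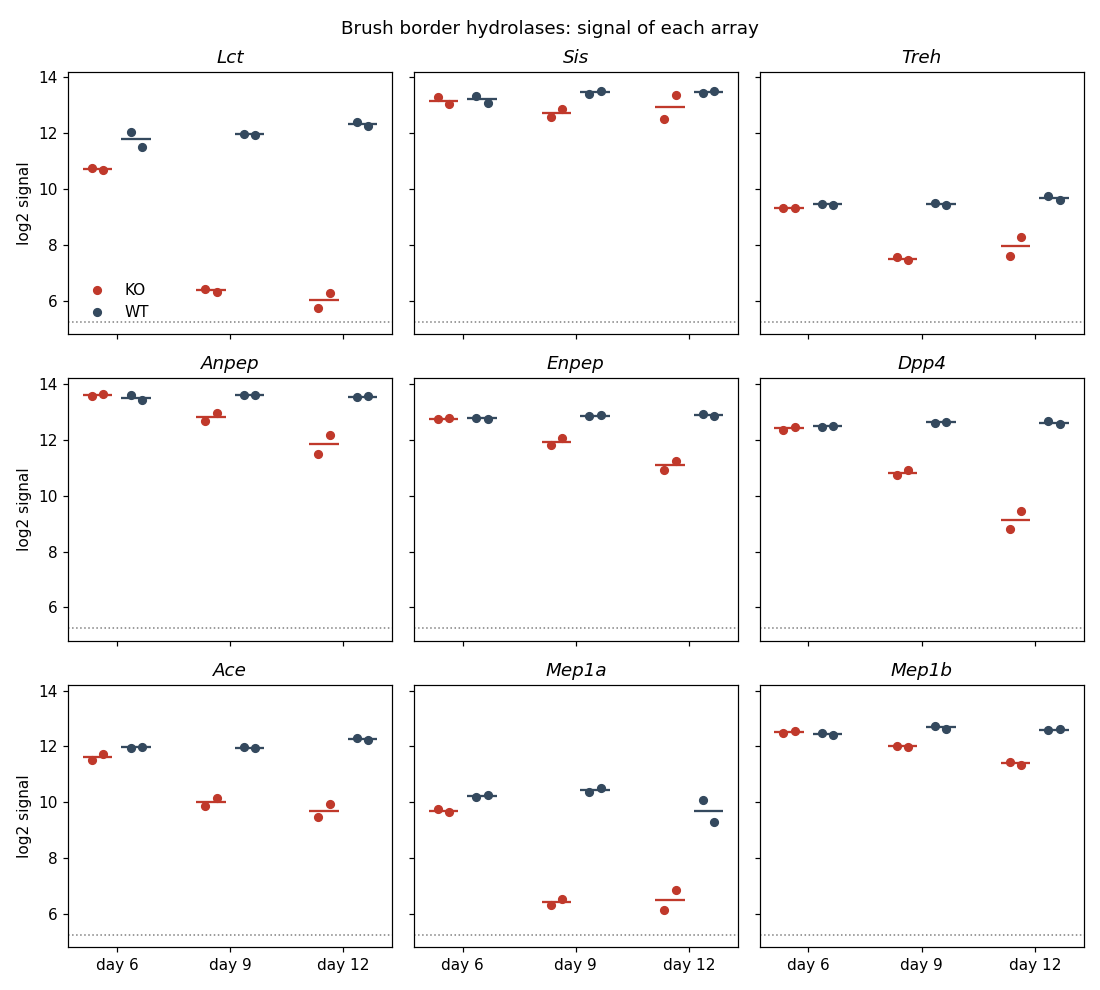
Log2 signal of each array for the 9 enzymes by day, with KO (red) left of WT (grey), a horizontal bar at each group mean and a dotted line at the dim level of 5.26. All 9 genes have both KO points below both WT points at days 9 and 12, with Lct and Mep1a nearest to the dotted line in KO.

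Lactase showed the largest change among the 9 enzymes, and it was the only one called at day 6. Lct signals were 10.74 and 10.67 in KO at day 6, against 12.06 and 11.50 in WT. They were 6.43 and 6.32 in KO at day 9, against 11.99 and 11.93 in WT, and on day 12 the values were 5.73 and 6.29 in KO, against 12.41 and 12.25 in WT. The groups did not overlap on any day, and the KO arrays of days 9 and 12 stood below every other array. Lct was 2.11-fold lower in KO at day 6 (95% interval 1.58 to 2.80, adjusted p = 0.0292), 48.0-fold lower at day 9 (36.1 to 63.9, adjusted p = 9.22e-09) and 80.0-fold lower at day 12 (60.1 to 106, adjusted p = 2.07e-09). In order of level the 3 WT groups came first, day 12 above day 9 above day 6, then KO day 6, KO day 9 and KO day 12; neither the neighbours in WT nor KO days 9 and 12 differed by the test.

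The early fall of lactase was less secure than the later ones. Its log2 difference at day 6 was -1.07, and it lost its call without KO day 6 replicate 1 (-1.11, adjusted p = 0.169), without KO day 6 replicate 2 (-1.04, adjusted p = 0.204) or without WT day 6 replicate 1 (-0.80, adjusted p = 0.215). The adjusted p was also 0.0512 without either WT array of day 9 and 0.0508 with the day 6 arrays fitted alone. Smooth muscle markers, such as Des and Myh11, were low in the same KO arrays: the mean log2 signal of the 10 markers was 7.83 and 7.65 in KO at day 6, against 9.41 and 8.74 in WT, although 0 of 10 passed the test. With that mean as a covariate the Lct difference at day 6 was -1.02 (SE 0.30, adjusted p = 0.411). The Lct calls at days 9 and 12 held with any array left out.

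Sucrase-isomaltase changed far less. Sis signals were 13.29 and 13.05 in KO at day 6, against 13.34 and 13.10 in WT, so the groups overlapped. At day 9 they were 12.57 and 12.86 in KO, against 13.39 and 13.53 in WT, and on day 12 the values were 12.53 and 13.36 in KO, against 13.43 and 13.50 in WT. The day 12 KO arrays lay far apart, and the higher one came within 0.1 of the lower WT array. Sis was 1.68-fold lower in KO at day 9 (95% interval 1.21 to 2.33, adjusted p = 0.0226), while at day 12 the ratio of 1.44 (1.03 to 2.00) did not pass after adjustment (adjusted p = 0.102).

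The Sis call rested on single arrays. At day 9 the log2 difference of -0.75 lost its call without KO day 9 replicate 1 (-0.60, adjusted p = 0.153), WT day 9 replicate 1 (-0.81, adjusted p = 0.0633) or WT day 9 replicate 2 (-0.68, adjusted p = 0.123), and under quantile normalisation (-0.53, adjusted p = 0.066). The day 12 difference of -0.52 was -0.11 without KO day 12 replicate 1 and -0.94 without KO day 12 replicate 2 (adjusted p = 0.00134). Averaged over days the difference was -0.44 (SE 0.12, adjusted p = 0.0177), lost without KO day 6 replicate 2 (-0.40, adjusted p = 0.0541), WT day 6 replicate 1 (-0.40, adjusted p = 0.0511) or KO day 9 replicate 1 (-0.39, adjusted p = 0.0534). Its 6 groups in order were the WT groups of days 12, 9 and 6, then KO days 6, 12 and 9, and of these neighbours none of the pairs tested differed.

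Trehalase was lower in KO at day 9 and had not fallen further at day 12. Treh signals were 9.33 and 9.32 in KO at day 6, against 9.48 and 9.42 in WT. They were 7.57 and 7.44 in KO at day 9, against 9.51 and 9.43 in WT, and on day 12 the values were 7.60 and 8.29 in KO, against 9.75 and 9.62 in WT. Both KO arrays lay below both WT arrays on each day, by under 0.2 at day 6, where the difference of -0.13 (SE 0.17) did not pass (adjusted p = 0.864). Treh was 3.90-fold lower in KO at day 9 (95% interval 3.01 to 5.04, adjusted p = 7.99e-06) and 3.34-fold lower at day 12 (2.58 to 4.32, adjusted p = 1.6e-05).

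Lct and Sis moved unequally within the same arrays; the pair was chosen after its values were seen, so no test is given. The Lct minus Sis difference, set relative to its WT mean, was -1.19 and -1.02 in KO at day 6, against 0.07 and -0.24 in WT. It was -4.78 and -5.19 in KO at day 9, against -0.05 and -0.24 in WT, and on day 12 the values were -5.43 and -5.71 in KO, against 0.35 and 0.10 in WT. Every KO array lay below every WT array, also at day 12, where the KO arrays differed in Sis by 0.83. Mgam, the maltase-glucoamylase related to sucrase-isomaltase and named here for that link, averaged 13.10 in KO at day 9, against 13.03 in WT. Its difference was 0.07 at day 9 (95% interval -0.16 to 0.31, adjusted p = 0.653) and -0.03 at day 12 (-0.26 to 0.20, adjusted p = 0.889).

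**Figure D2:**
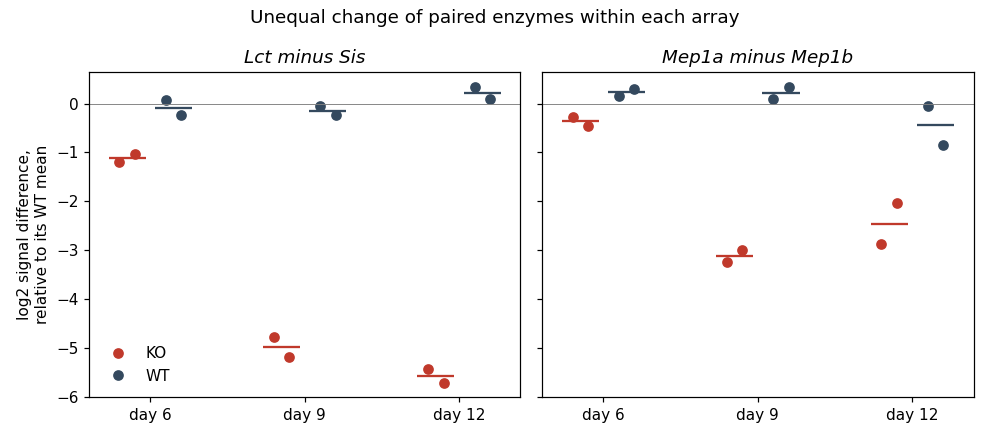
Within-array log2 signal difference of Lct minus Sis (left) and Mep1a minus Mep1b (right), each relative to its mean over the WT arrays, by day with KO (red) left of WT (grey) and bars at group means. KO arrays lie between -5.71 and -1.02 for Lct minus Sis and between -3.25 and -0.27 for Mep1a minus Mep1b.

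The aminopeptidases Anpep and Enpep overlapped with WT at day 6 and then fell in steps. Anpep signals were 13.56 and 13.64 in KO at day 6, against 13.60 and 13.42 in WT. They were 12.68 and 12.96 in KO at day 9, against 13.60 and 13.60 in WT, and on day 12 the values were 11.49 and 12.18 in KO, against 13.54 and 13.56 in WT. The groups overlapped at day 6 and were apart at days 9 and 12. Anpep was 1.72-fold lower in KO at day 9 (95% interval 1.30 to 2.26, adjusted p = 0.00718) and 3.28-fold lower at day 12 (2.49 to 4.32, adjusted p = 2.99e-05). Without KO day 9 replicate 1 the day 9 difference was -0.64 (adjusted p = 0.0694), against -0.78 with all arrays.

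Enpep, which trims acidic residues and also inactivates angiotensin II, had signals of 12.74 and 12.78 in KO at day 6, against 12.79 and 12.76 in WT. It had 11.81 and 12.07 in KO at day 9, against 12.86 and 12.88 in WT, and on day 12 the values were 10.93 and 11.23 in KO, against 12.93 and 12.84 in WT. The groups overlapped at day 6 only, and each KO array of day 12 lay below each of day 9. Enpep was 1.91-fold lower in KO at day 9 (95% interval 1.60 to 2.27, adjusted p = 1.24e-04) and 3.49-fold lower at day 12 (2.92 to 4.16, adjusted p = 6.46e-07). Both aminopeptidases are also made outside enterocytes, Anpep in macrophages among others; 8 macrophage markers averaged 7.96 and 7.92 in KO at day 12, against 7.54 and 7.50 in WT, with 5 of 8 higher and 1 lower by the test, and their part in the Anpep values was not tested.

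Among the dipeptide-releasing enzymes, Dpp4 had the larger fall at day 12. Dpp4 signals were 12.36 and 12.47 in KO at day 6, against 12.46 and 12.50 in WT. At day 9 they were 10.73 and 10.93 in KO, against 12.62 and 12.64 in WT, and on day 12 the values were 8.82 and 9.46 in KO, against 12.66 and 12.58 in WT. The groups overlapped at day 6 and were over 1 unit apart at day 9 and over 3 units apart at day 12. Dpp4 was 3.48-fold lower in KO at day 9 (95% interval 2.71 to 4.47, adjusted p = 1.24e-05) and 11.2-fold lower at day 12 (8.70 to 14.3, adjusted p = 6.36e-08).

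Dpp4 is also the T cell surface protein CD26. The mean log2 signal of 7 T cell markers was 6.00 and 6.18 in KO at day 9, against 6.59 and 6.42 in WT, and on day 12 the values were 5.76 and 5.55 in KO, against 6.30 and 6.58 in WT. Of these, 2 of 7 were lower at day 9 and 5 of 7 at day 12, with Cd3g, a chain of the T cell receptor complex, at -1.08 and -2.10. Their part in the Dpp4 values was not tested.

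Ace signals were 11.50 and 11.73 in KO at day 6, against 11.95 and 11.98 in WT. They were 9.86 and 10.14 in KO at day 9, against 11.97 and 11.95 in WT, and on day 12 the values were 9.46 and 9.95 in KO, against 12.29 and 12.22 in WT. Both KO arrays lay below both WT arrays on each day, although the day 6 difference of -0.35 (SE 0.15) did not pass (adjusted p = 0.384). Ace was 3.89-fold lower in KO at day 9 (95% interval 3.09 to 4.89, adjusted p = 3.46e-06) and 5.87-fold lower at day 12 (4.66 to 7.38, adjusted p = 3.39e-07). Blood vessel endothelium also makes Ace. The mean of 10 endothelial markers was 7.21 and 7.15 in KO at day 12, against 7.14 and 7.18 in WT. Of these markers, 1 of 10 was lower at day 9 and 0 of 10 at day 12. The part of endothelium in the Ace values was not tested.

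The meprin subunits moved by different amounts. Mep1a signals were 9.75 and 9.64 in KO at day 6, against 10.20 and 10.25 in WT. They were 6.30 and 6.55 in KO at day 9, against 10.36 and 10.52 in WT, and on day 12 the values were 6.12 and 6.84 in KO, against 10.09 and 9.31 in WT. On each day both KO arrays lay below both WT arrays, and the WT arrays of day 12 stood farther apart than those of days 6 and 9. Mep1a was 16.2-fold lower in KO at day 9 (95% interval 11.1 to 23.5, adjusted p = 6.71e-07) and 9.31-fold lower at day 12 (6.40 to 13.5, adjusted p = 2.35e-06), while the day 6 difference of -0.53 (SE 0.25) did not pass (adjusted p = 0.43).

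Mep1b signals were 12.47 and 12.54 in KO at day 6, against 12.49 and 12.41 in WT. They were 12.00 and 12.00 in KO at day 9, against 12.72 and 12.64 in WT, and on day 12 the values were 11.45 and 11.34 in KO, against 12.59 and 12.61 in WT. The arrays of a group lay close together, and the groups were apart at days 9 and 12. Mep1b was 1.60-fold lower in KO at day 9 (95% interval 1.41 to 1.83, adjusted p = 1.41e-04) and 2.30-fold lower at day 12 (2.02 to 2.63, adjusted p = 1.42e-06). The Mep1a minus Mep1b difference relative to its WT mean was -3.25 and -3.00 in KO at day 9, against 0.09 and 0.34 in WT, and on day 12 the values were -2.87 and -2.04 in KO, against -0.04 and -0.85 in WT. The KO arrays of days 9 and 12 lay below every WT array. As with Lct and Sis, this pair was set side by side after its values were seen and carries no test.

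**Figure D3:**
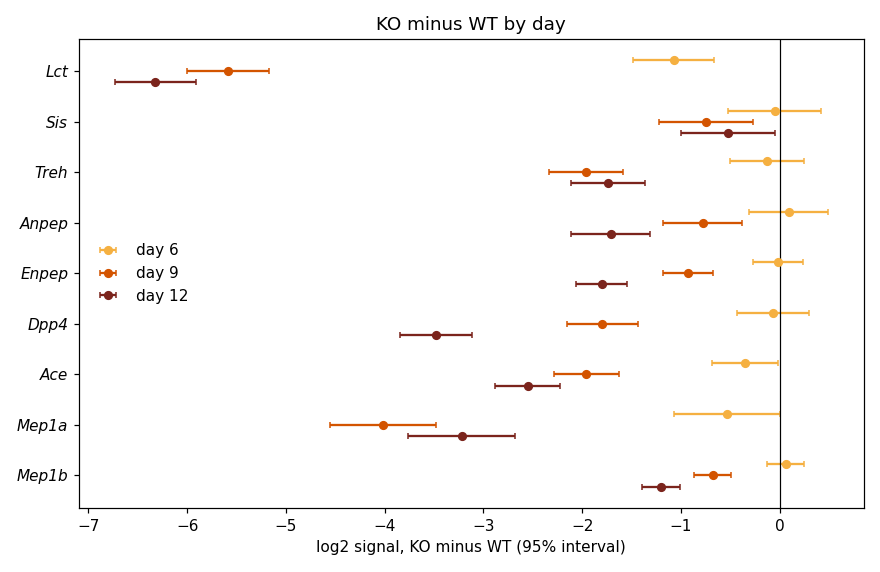
KO minus WT difference in log2 signal for each enzyme at days 6, 9 and 12, with unadjusted 95% intervals from the limma fit. At day 6 Lct (-1.07), Mep1a (-0.53) and Ace (-0.35) lie farthest below 0 and Lct alone was called, whereas intervals at day 9 lie below 0 for all 9 genes, from -0.68 for Mep1b to -5.59 for Lct.

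The enzymes followed different courses after day 6. For all 9, the KO groups of days 9 and 12 had the lowest means of the 6 groups, with day 9 the lower of them for Sis, Treh and Mep1a and day 12 for the other 6. The 3 WT groups and KO day 6 lay above them, and among those the day 6 comparison of KO with WT passed for Lct only and no step between days in WT passed. Within KO, 8 of 9 were lower at day 9 than at day 6, beside 14.5% of all genes, and Sis did not pass (-0.45, SE 0.22, adjusted p = 0.153). Lct had the largest step at -4.33 (SE 0.19), then Mep1a at -3.27 (SE 0.25). Between days 9 and 12 within KO, 4 of 9 fell further, beside 8.81% of all genes. These were 3 exopeptidases, namely Anpep (-0.98, SE 0.18, adjusted p = 0.00377), Enpep (-0.86, SE 0.12, adjusted p = 7.71e-04) and Dpp4 (-1.69, SE 0.16, adjusted p = 1.12e-04), together with Mep1b (-0.60, SE 0.09, adjusted p = 0.00103).

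The other 5 did not pass over that later step. Lct and Mep1a already averaged 6.38 and 6.42 in KO at day 9, against a dim level of 5.26. Whether a further fall could be read that near to it was not tested. Lct changed by -0.37 (SE 0.19, adjusted p = 0.184), Ace by -0.29 (SE 0.15, adjusted p = 0.183), Mep1a by 0.06 (SE 0.25, adjusted p = 0.891), Sis by 0.23 (SE 0.22, adjusted p = 0.487) and Treh by 0.44 (SE 0.17, adjusted p = 0.0832). The KO arrays of day 12 bear on this, since replicate 1 lay below replicate 2 for 8 of 9 genes, with gaps of 0.11 to 0.83 over the 9, and Mep1b ran the other way. Without KO day 12 replicate 1, Treh (0.78, adjusted p = 9e-04) and Sis (0.64, adjusted p = 0.0135) were higher in KO at day 12 than at day 9. Without KO day 12 replicate 2, Ace was lower (-0.54, adjusted p = 0.0312). The Anpep step between days 6 and 9 lost its call without KO day 6 replicate 2 (-0.74, adjusted p = 0.0655) or KO day 9 replicate 1 (-0.64, adjusted p = 0.0906), and Sis gained one without either KO array of day 12 (adjusted p = 0.024).

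Tested as an interaction, the KO minus WT difference depended on the day for 8 of 9 genes, beside 18.5% of all genes, and Sis was the exception (adjusted p = 0.258). The adjusted p ran from 1.12e-06 for Lct to 0.00214 for Anpep. Between days 9 and 12 the difference itself grew for 3 of 9 genes, beside 2.02% of all genes: Dpp4 by -1.68 (SE 0.23, adjusted p = 0.00375), Enpep by -0.87 (SE 0.16, adjusted p = 0.0141) and Mep1b by -0.52 (SE 0.12, adjusted p = 0.0324). The Dpp4 call held with any array left out.

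The other day 9 to day 12 calls depended on the arrays used. Enpep lost its call without WT day 9 replicate 2 (-0.88, adjusted p = 0.0588) or WT day 12 replicate 1 (-0.83, adjusted p = 0.0534), and Mep1b kept its own only without KO day 12 replicate 1 or either WT array of day 6. Without any one of the other 9 arrays the Mep1b value ran from -0.56 to -0.47, with adjusted p between 0.0503 and 0.136. Without KO day 12 replicate 2, the difference also grew for Anpep (-1.28, adjusted p = 0.0038), Lct (-1.01, adjusted p = 0.0459) and Ace (-0.84, adjusted p = 0.0274). Without KO day 12 replicate 1, it grew for Anpep (-0.59, adjusted p = 0.0498) and shrank for Mep1a (1.16, adjusted p = 0.0401) and Treh (0.56, adjusted p = 0.0284).

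In WT, 0 of 9 enzymes passed the F test over the 3 days, beside 0.0201% of all genes (4 genes). At an unadjusted p under 0.05, 2 of 9 did, Mep1a (adjusted p = 0.464) and Lct (adjusted p = 0.475), among 2003 of all genes.

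Genes outside the membrane enzymes were grouped into other lists. Among 14 further brush border hydrolases, 8 were lower and 0 higher in KO at day 9, with a median of -1.28, and 7 were lower and 3 higher at day 12, with a median of -1.17. Enpp7, an alkaline sphingomyelinase, differed by -5.25 (SE 0.26) at day 9 and -6.49 at day 12, Xpnpep2, a membrane aminopeptidase P, by -4.64 (SE 0.19) and -3.37, and Naaladl1, a membrane peptidase, by -2.54 (SE 0.25) and -5.27. The phospholipase Plb1 was lower at day 9 (-4.13, SE 0.75) and did not pass at day 12 (-2.09, adjusted p = 0.0611). The 3 higher ones, named after their values were seen, were the alkaline phosphatases Akp3 (3.94, SE 0.41, adjusted p = 2.85e-05) and Alpi (0.42, adjusted p = 0.0147) and the enteropeptidase Tmprss15 (0.40, adjusted p = 0.0135), whose mean lay below the dim level. Akp3 and Alpi are close relatives, and whether their probe sets share signal was not tested.

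The carriers that take up the products of these enzymes were lower as well. Of 14 sugar, amino acid and peptide transporters, 1 was lower at day 6, 12 at day 9 and 11 at day 12, with 0 higher on any day and medians of -1.80 and -1.64 at days 9 and 12. Slc1a1, a glutamate and aspartate carrier, was the one at day 6 (-1.51, SE 0.13, adjusted p = 3.18e-04) and differed by -3.97 at day 9 and -3.69 at day 12. The amino acid carriers Slc7a8 (-3.36, SE 0.44) and Slc36a1 (-3.07, SE 0.16) and the fructose carrier Slc2a5 (-2.41, SE 0.36) were the next at day 9. Slc5a1, the glucose and galactose carrier, and Slc15a1, the di- and tripeptide carrier, are named for their link to these enzymes: Slc5a1 averaged 10.89 in KO at day 9, against 12.81 in WT (-1.92, SE 0.20), and Slc15a1 averaged 11.08 in KO, against 12.77 in WT (-1.69, SE 0.19).

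Peptidases of the enterocyte cytosol, which finish the absorbed small peptides but are widely made, were lower for 6 of 8 at day 9 and 5 of 8 at day 12, with medians of -0.84 and -1.15. Pepd, which cuts dipeptides ending in proline, differed by -2.25 (SE 0.10) at day 9, the leucine aminopeptidase Lap3 by -2.01 (SE 0.27), the dipeptidase Cndp2 by -1.33 (SE 0.11) and the aminopeptidase P Xpnpep1 by -1.25 (SE 0.10). Enzymes related by sequence to the brush border set but with other roles showed no common direction: of 13, 5 were lower and 2 higher at day 9, and 4 were lower and 2 higher at day 12. Gusb, the lysosomal beta-glucuronidase, was higher by 0.86 at day 6 (adjusted p = 0.0287), by 2.11 (SE 0.15) at day 9 and by 2.11 at day 12. The aminopeptidases Erap1 (-1.10, SE 0.10) and Rnpep (-0.82, SE 0.13) were lower at day 9, and Npepps was at -0.42.

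Transcription factors of enterocytes had a smaller median difference than the enzymes. Of 14 measured, 8 were lower at day 9 and 9 at day 12, with 0 and 1 higher, and the medians were -0.44 and -0.51. The lipid-sensing receptor Ppara differed by -1.41 (SE 0.17) at day 9, Hnf4g by -1.10 (SE 0.17), Gata4 by -0.83 (SE 0.15) and Creb3l3 by -0.63 (SE 0.13), the last reaching -1.37 at day 12. Cdx2, named for the motif family in the Lct and Sis windows, did not pass at day 9 (-0.18, SE 0.11) and was lower at day 12 (-0.44, adjusted p = 0.0115). Hnf4a, named for the HNF4-type match in the Treh window, was lower at day 9 (-0.41, adjusted p = 0.022) and did not pass at day 12 (-0.26, adjusted p = 0.137). The single one higher, Foxa2 (0.36, adjusted p = 0.0332), was named after its values were seen.

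The scaffold of the microvillus and the machinery that sorts proteins to it were split. Of 17 genes, 9 were lower and 4 higher at day 9, and 11 were lower and 3 higher at day 12, with medians of -0.30 and -0.42. The apical scaffold protein Pdzk1 differed by -2.75 (SE 0.15) at day 9 and -3.60 at day 12, and the actin binders Vil1 (-0.85, SE 0.09), Pls1 (-0.80, SE 0.11) and Myo1a (-0.59, SE 0.09) by less. The 4 higher at day 9 belong to apical membrane traffic, namely Rab11a (0.40), Myo5b (0.37), Stx3 (0.32) and Stxbp2 (0.32), and were named after their values were seen.

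**Figure D4:**
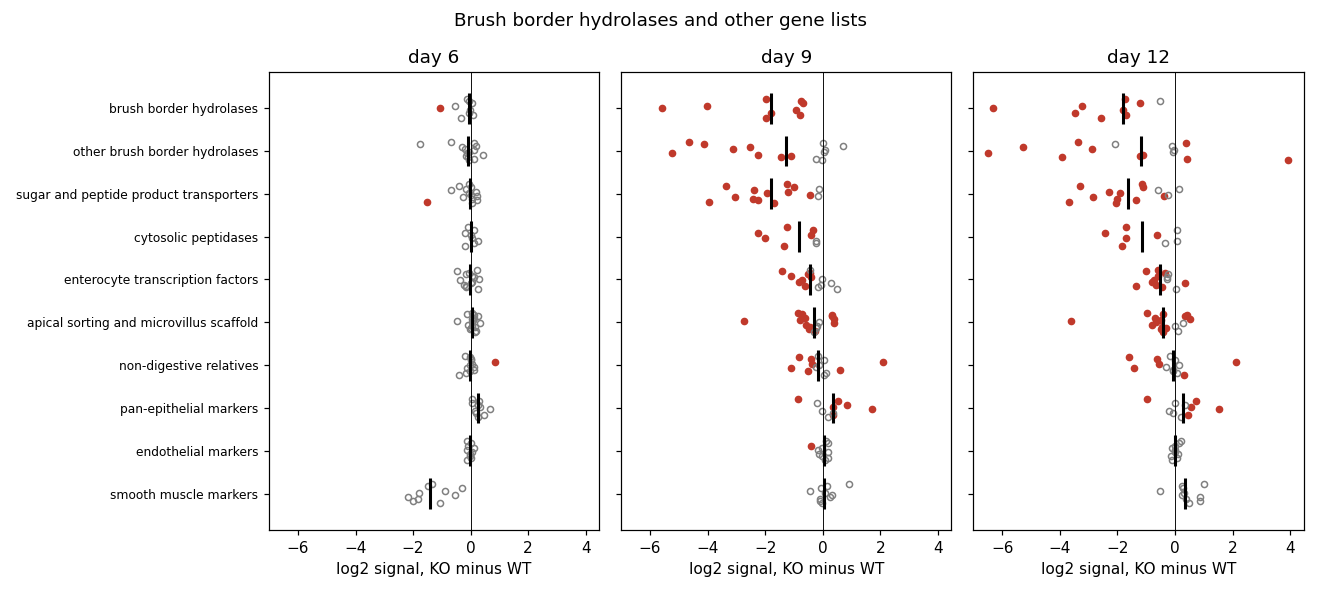
KO minus WT difference in log2 signal of every measured gene in 10 gene lists at days 6, 9 and 12, with filled red points for adjusted p under 0.05, open points for the others and a black bar at each list's median. The medians of the 9 brush border enzymes are -0.07, -1.80 and -1.80, while those of the pan-epithelial markers are 0.25, 0.36 and 0.28.

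Apart from Vil1, general epithelial markers were not called lower beside the enzymes. Of the 10 pan-epithelial markers 0 passed at day 6, 5 were higher and 1 lower at day 9, and 4 were higher and 1 lower at day 12, Vil1 being the lower one on both days. Smooth muscle had 0 of 10 markers called on any day, with medians of -1.41 at day 6, 0.03 at day 9 and 0.35 at day 12. Of 6 pericyte markers 2 and 3 were higher at days 9 and 12, and of 7 fibroblast markers 3 and 3. Pancreatic acinar markers averaged 5.14 to 5.43 on every array, near the dim level, with 0 of 5 called at day 9 and 1 higher at day 12. Of 6 B and plasma cell markers 1 was lower at day 9 and 2 at day 12. Measured relative to the pan-epithelial mean of each array, 9 of 9 enzymes were lower at days 9 and 12, Sis among them (-0.78 at day 12, adjusted p = 0.0293). That mean was itself higher in KO, at 11.79 and 11.76 against 11.43 and 11.47 in WT at day 9. At day 12 it was 11.69 and 11.48 in KO, against 11.39 and 11.25 in WT. The scaling thus moved every gene down in KO, Sis included, and the share of all genes lower under it was not counted.

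Likeness of pattern was measured as the root mean square distance over the 12 arrays between log2 values, each taken relative to the gene's WT mean. The candidates were 13543 genes above the dim level, without the 9 enzymes and predicted genes. These distances grow with the size of the change, so pairs with large changes tend to lie farther apart. By this measure the enzymes closest to each other were Anpep and Enpep (0.13), and those farthest apart were Lct and Sis (3.09), while Mep1a and Mep1b lay 1.66 apart. Outside the set, the genes nearest to Lct were Olfm4 (0.53), a crypt base marker, Enpp7 (0.59) and the phosphate carrier Slc34a2 (0.60). Those nearest to Mep1a were the amino acid carrier Slc7a15 (0.35), Susd2 (0.36) and Xpnpep2 (0.39), and those nearest to Dpp4 were Bst1 (0.21), Me2 (0.21) and Ces2e (0.22).

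Nearest to Anpep were the mitotic genes Nusap1 (0.14) and Mki67 (0.16) and the hexokinase relative Hkdc1 (0.15). Enpep lay nearest to Pank1 (0.07), Myb (0.11) and the triglyceride synthesis gene Mogat2 (0.12), and Mep1b to Ipmk (0.09), Snx25 (0.10) and Ncapd2 (0.11). Ace lay nearest to Epb41l3 (0.16), Nlrp6 (0.18) and Hadh (0.18), and Treh to Dglucy (0.15), Mertk (0.16) and Bpnt1 (0.17).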

How the data were processed

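Whole-jejunum RNA of 12 mice was measured on the Affymetrix Mouse Gene 1.0 ST array, per the labels. The authors deposited log2 signals for 35556 probe sets; limma and R 3.5 are named in the submitters' processing notes. How background was corrected, probes summarised and arrays normalised is not given in the sources used here. The values were used as deposited. Probe sets with 1 gene symbol (21789) were kept, the one with the highest mean per gene, which left 19938 genes.

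A limma 3.58.1 model in R 4.3.3 fitted group means over all 12 arrays (6 residual and 5.23 prior degrees of freedom), two-sided, with Benjamini-Hochberg adjustment over 19938 genes and calls at 0.05. With 2 mice per group an exact test at a single day cannot go below 0.333, so p-values rest on the spread shared by all groups; the number of arrays limits the precision. Exact permutation of genotype within days (216 arrangements, smallest p 0.00926) was run for the average over days.

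The 9 enzymes and 18 gene lists (160 of 170 genes measured) were chosen with earlier results of these data known. Named were all 9 enzymes, per list at most the 4 called genes with the largest difference at day 9 or 12, genes directly linked to an enzyme, those said to be named after their values were seen, and a few markers as examples, and, per enzyme called at days 9 and 12, the 3 nearest genes, without predicted genes. The fit was tested on simulated data. Alternatives covered scaling, filter, probe set rule, moderation, covariates, replicate block and left-out arrays.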

Additional observations from a re-analysis of the deposited data

Results flagged for a closer look

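For 8 of the 9 enzymes the KO minus WT difference differed between days 6, 9 and 12 by the limma interaction F test, adjusted over all genes. The adjusted p was 1.12e-06 for Lct, 1.43e-05 for Dpp4, 1.3e-04 for Enpep, 1.49e-04 for Ace, 1.62e-04 for Mep1a, 1.71e-04 for Mep1b, 7.08e-04 for Treh and 0.00214 for Anpep. In all 8 the differences at days 9 and 12 were more negative than at day 6. Groups of 2 mice are too small for a check of single deviating arrays.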

How the results depend on the processing

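With 2 mice per group, small differences, those at day 6 and those of Sis above all, are at the edge of what the arrays can resolve. The KO minus WT results of the enzymes, by day and averaged over days, were compared with the alternatives run. Of these comparisons, 722 kept their direction and their side of the threshold, 15 lost a call, 3 gained one and 7 changed sign. The interaction results were not part of this count. Many of the comparisons counted could not have changed direction. Leaving out an array of another day leaves a day's difference as it was and alters only its spread and adjusted p. The filter on dim genes, the other moderation and the fit of a single day's arrays likewise leave the differences unchanged. The count therefore does not measure how robust the results are.

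At day 6 the count of enzymes lower was 0 with that day's arrays fitted alone and with the smooth muscle mean as a covariate, and 0 to 1 with arrays left out, against 1 otherwise. All genes called at day 6 numbered 205, but 1770 relative to the pan-epithelial mean, 101 with the replicate block, 20 with the smooth muscle covariate and 21 to 291 with arrays left out. At day 9 the 5917 calls became 9083 relative to the pan-epithelial mean and 3646 to 6542 with arrays left out, and for the average over days 6493 became 14761 relative to the pan-epithelial mean; the causes were not tested. The counts of enzymes lower were 7 to 9 at day 9, 8 to 9 at day 12 and 8 to 9 on average with arrays left out.

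Among the KO minus WT differences, signs changed at day 6 only, for genes with no call there: Enpep was 0.011 with centred medians, Anpep -0.17 and Mep1b -0.20 relative to the pan-epithelial mean, and Anpep -0.26 with the smooth muscle covariate. With arrays left out, Enpep ran from -0.043 to 0.0049 and Sis from -0.17 to 0.068. Uncalled steps from day 9 to day 12 changed sign too. Without KO day 12 replicate 2 the step within KO was -0.19 for Sis and -0.30 for Mep1a, and the change in the KO minus WT difference was -0.19 for Sis and -0.12 for Treh. Without KO day 9 replicate 1 the step within KO was -0.066 for Mep1a.

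The same-number correlations of deviations were 0.18, -0.09 and 0.11 at days 6, 9 and 12. A single value per day, with no spread to set it against, cannot show whether the numbers pair the mice. With the replicate block 9 of 9 enzymes were lower at day 12, Sis with an adjusted p of 0.0414, and the share of all genes lower in that fit was not counted.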

Other observations

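Genes known for their place along the gut or the villus gave values that the account above does not hold, and their part in the enzyme values was not tested. Among 6 ileal genes, Slc10a2, the bile acid carrier of the distal small intestine, was higher in KO by a log2 difference of 1.40 at day 6 (adjusted p = 0.00334), 3.79 at day 9 (adjusted p = 7.36e-08) and 3.34 at day 12 (adjusted p = 1.05e-07). Slc51b, a subunit of the basolateral bile acid exporter, was lower by -1.01 at day 9 and -2.15 at day 12, and the list as a whole had 1 lower and 2 higher at day 9 and 2 lower and 1 higher at day 12. Of 5 proximal genes, 3 were higher and 1 lower at both days. The higher ones were the iron exporter Slc40a1 (3.76 at day 9 and 4.73 at day 12), the iron reductase Cybrd1 (1.20 and 3.97) and the transcription factor Onecut2 (1.07 and 2.44), and the lower one was Gata4.

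Of 8 genes known from the villus tip, 4 were lower and 1 higher at day 9 and 3 lower and 0 higher at day 12, with medians of -0.40 and -0.36. The adenosine deaminase Ada differed by -2.59 at day 12, and the ectonucleotidase Enpp3 by -2.27 at day 9 and -1.11 at day 12, while the nucleoside carrier Slc28a2 was the one higher at day 9 (0.70, adjusted p = 0.0492).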
